A study of Mus musculus with 20 samples.

Results

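Brain RNA of the mouse line labelled J27a was compared with brain RNA of the line labelled J27b, the pair of lines whose codes name the 7a and 7b forms of JNK2. The 6 libraries were chosen by their titles, 3 of J27a and 3 of J27b, out of 20 libraries in 7 groups, and every gene with enough counts in these 6 libraries entered the comparison. All 6 were made from brain of mice labelled strain C57/Bl6J, and the genotype entry holds the code alone. The labels spell out neither code, give no age or sex, and do not say whether the form in a code was kept or removed or which alleles the line carries. Per the series' design text, the mice lack single isoforms or serve as controls, were kept on normal diet, and were profiled for exon use and as a description of the model. Whether the 3 libraries of a line stem from different animals is not stated, and the p-values measure only how far these samples spread, which may be technical.

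JNK1, JNK2 and JNK3 are stress-activated protein kinases encoded by Mapk8, Mapk9 and Mapk10. They are switched on by an upstream kinase cascade held together by scaffold proteins, phosphorylate the AP-1 factor c-Jun and many proteins of the neuronal cytoskeleton, and are abundant in brain. Each gene carries a pair of alternative exons that encode part of the kinase domain, and a transcript uses one or the other.

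In mouse Mapk9 this pair lies on the plus strand of chromosome 11. The exons are shown because the form named in each line code rests on this choice. Capitals mark the bases that differ between the exons when they are aligned base for base.
upstream exon, chr11:49873836-49873907: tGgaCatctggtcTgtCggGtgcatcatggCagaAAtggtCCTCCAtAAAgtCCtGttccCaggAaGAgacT
downstream exon, chr11:49874264-49874335: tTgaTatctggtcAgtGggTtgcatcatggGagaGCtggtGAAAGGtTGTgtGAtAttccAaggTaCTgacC
Both exons are 72 bases long in the GENCODE M21 annotation of mm10, the build of the count tables, and 47 of the 72 bases (65.3%) are the same. Of 7 coding Mapk9 transcripts, 4 hold the upstream and 3 the downstream exon, and 0 hold both. The files count reads per gene, so the use of either exon was not measured, and which exon the labels call 7a was not stated.

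The 6 libraries held 24859079 to 30569978 estimated counts each, within the 21395041 to 33828755 of all 20. Of 23845 genes in the table, 15169 passed the filter on low counts and were tested. The brain label was borne out by high levels of neuronal, myelin and astrocyte transcripts. Snap25, of the synaptic release machinery, stood at 2494, 2499 and 2567 CPM (read counts scaled to a common library size) in J27a and 2385, 2326 and 2404 CPM in J27b, and Slc1a3, the astrocytic glutamate transporter, at 707, 703 and 618 CPM in J27a and 567, 636 and 590.2 CPM in J27b. Individual libraries stood apart in transcripts of single regions. Gh, the growth hormone of the anterior pituitary, was listed at 12.7, 0.0748 and 454 CPM in J27a and at 0.0325, 0.232 and 0.518 CPM in J27b, so that J27a replicate 3 carried most of it; the other 6 of the 7 pituitary markers did not pass the filter on low counts. Ttr, the transthyretin of the choroid plexus, stood at 361, 401 and 405 CPM in J27a and at 1294, 399 and 610.4 CPM in J27b, highest in J27b replicate 1. Cerebellar transcripts were high in J27a replicates 1 and 2 alone, as set out further on.

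The JNK2 gene itself did not pass the test. Mapk9 (chromosome 11, 49846751 to 49886421) stood at 288, 295 and 302 CPM in J27a and at 271, 274 and 275 CPM in J27b. The lowest J27a library lay above the highest J27b library, and the J27a mean was 108% of the J27b mean. The log2 fold change of J27a over J27b was 0.11 (SE 0.04, 95% interval 0.02 to 0.20), with an unadjusted p of 0.0153 and an adjusted p of 0.264 in edgeR's quasi-likelihood test, which did not pass 0.05. A two-sided exact permutation test gave p = 0.1, the smallest that 3 libraries against 3 allow. On the length-scaled TPM measure, Mapk9 averaged 155 ± 3.20 in J27a and 143 ± 2.07 in J27b (SD, n = 3 each). Mapk8, which encodes JNK1, stood at 110.4, 111 and 128 CPM in J27a and at 109.8, 103 and 109.8 CPM in J27b (log2 fold change 0.12, edgeR adjusted p = 0.456; exact permutation p = 0.1), with a narrow gap between the groups. Mapk10, the neuronal JNK3 gene, stood at 390.4, 374 and 417 CPM in J27a and at 380.3, 365 and 356 CPM in J27b (log2 fold change 0.10, edgeR adjusted p = 0.389; exact permutation p = 0.2), and its groups overlapped. All 3 JNK genes thus had higher means in J27a than in J27b by a similar factor, and 0 of 3 passed the test. Hereafter the signed value in brackets after a gene is its log2 fold change of J27a over J27b.

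Across the whole table, 125 of 15169 genes (0.824%) were called, that is, had an adjusted p under 0.05 in edgeR's quasi-likelihood test with Benjamini-Hochberg adjustment. Of these, 57 (0.376%) were higher and 68 (0.448%) lower in J27a. Libraries of the groups did not overlap at all in 2683 tested genes (17.7%). The 15 largest called changes each way were named only among such genes, so their lack of overlap was set in advance. Of the 125, 97 differed by less than 0.5 on the log2 scale. The calls rest on a small spread between these 6 libraries, with a biological coefficient of variation of 7.95%. When all 20 libraries entered a fit with a shared spread, 0 genes were called for the same contrast (930 at an unadjusted p under 0.05), while the DESeq2 Wald test on the 6 libraries called 259 and limma on log2(TPM + 1) called 4.

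**Figure D1:**
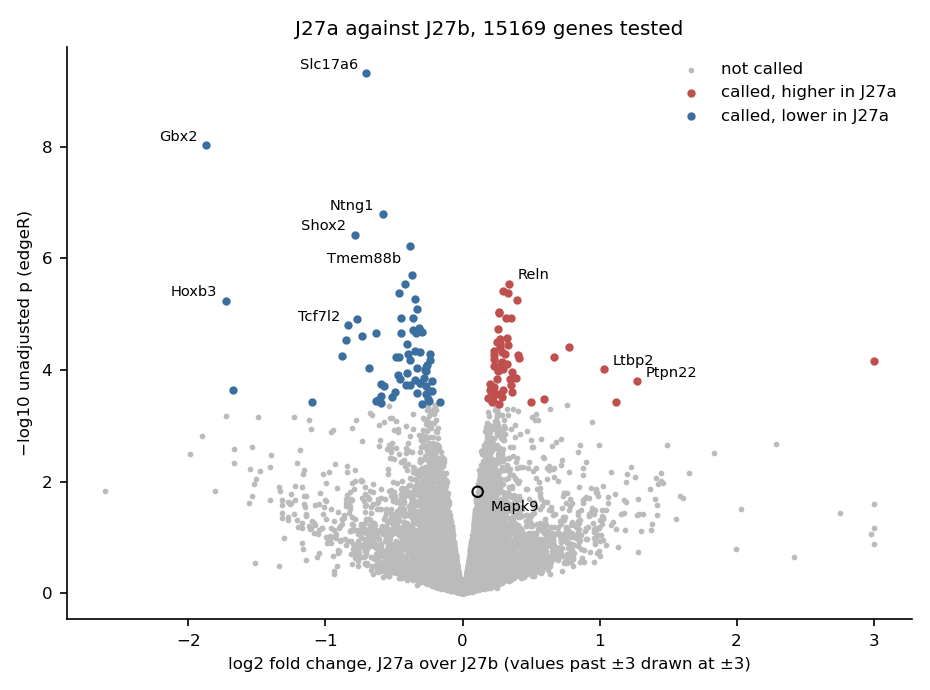
Each point is 1 of the 15169 genes tested, with the log2 fold change of J27a over J27b on the x axis (values past 3 in size are drawn at 3) and -log10 of the unadjusted edgeR p on the y axis; coloured points are the 57 genes called higher and the 68 called lower in J27a. Slc17a6 and Gbx2 stand highest on the lower side, and Mapk9, circled, lies among the genes not called.

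The 4 smallest p-values belonged to genes of thalamic and other subcortical neurons, and all 4 genes were lower in J27a. Slc17a6 (chromosome 7, 51622006 to 51671119), the vesicular glutamate transporter VGLUT2 that thalamic and brainstem neurons use, stood at 105, 108 and 95.8 CPM in J27a and at 169, 161 and 173 CPM in J27b. Every J27a library lay below every J27b library. Its log2 fold change was -0.70 (SE 0.05, edgeR adjusted p = 7.16e-06), a J27a mean of 61.5% of J27b. Gbx2 (chromosome 1, 89927956 to 89931179), a homeobox factor that patterns the thalamus and the border of midbrain and hindbrain, stood at 2.05, 2.88 and 2.01 CPM in J27a and at 7.90, 8.78 and 8.84 CPM in J27b. The groups lay far apart, with the J27a mean at 27.3% of J27b (-1.87, SE 0.18, edgeR adjusted p = 7.10e-05).

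Shox2 (chromosome 3, 66971727 to 66981771), another homeobox factor present in thalamic neurons, stood at 12.03, 12.9 and 12.8 CPM in J27a and at 20.1, 23.5 and 21.5 CPM in J27b (-0.79, SE 0.10, edgeR adjusted p = 0.00141). Ntng1, the membrane-anchored netrin-G1 of thalamic axons, stood at 44.3, 50.3 and 52.999 CPM in J27a and at 71.9, 73.2 and 76.1 CPM in J27b (-0.58, SE 0.07, adjusted p = 0.000817). Tcf7l2 (chromosome 19, 55741820 to 55933654), a Wnt-pathway transcription factor of thalamic neurons, stood at 36.6, 28.2 and 29.5 CPM in J27a and at 62.97, 51.7 and 53.6 CPM in J27b (-0.83, SE 0.11, adjusted p = 0.0102). The libraries of the groups did not overlap for any of these 3 genes. Slc17a6, Gbx2, Shox2 and Ntng1 were called in 6 of the 6 edgeR fits that leave out a library, and Tcf7l2 in 5, all but that without J27b replicate 3 (adjusted p = 0.0537). Hcn4, a pacemaker channel subunit with strong thalamic expression, was also called (-0.62, adjusted p = 0.0457), but not without J27a replicates 1 or 2 or J27b replicates 1, 2 or 3 (adjusted p = 0.0541 to 0.23).

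Of the 8 tested members of the list of thalamic and subcortical glutamatergic neurons, 3 were called lower and 0 higher, against 0.448% and 0.376% of all genes. Unadjusted p-values under 0.05 were reached by 6 lower and 0 higher members, against 5.87% and 6.34% of all genes, and the list's median log2 fold change was -0.56, against -0.00 over all tested genes. Prkcd, protein kinase C delta, stood at 59.9, 65.2 and 65.5 CPM in J27a and at 77.6, 107 and 105 CPM in J27b without passing the adjusted threshold (-0.60, edgeR adjusted p = 0.106). Lef1, a partner of Wnt signalling, and Plekhg1 had log2 fold changes of -0.52 and -0.49 (adjusted p = 0.115 and 0.122). Calb2, the calcium-binding calretinin, and Rora, a nuclear receptor that cerebellar Purkinje cells express as well, did not follow, at -0.11 and 0.01. The list level of a library, the median over members of log2(CPM + 0.5) minus its mean over the 6 libraries, was -0.26, -0.26 and -0.38 in J27a and 0.00, 0.30 and 0.38 in J27b. In bulk tissue, fewer cells of a type and less RNA per cell cannot be told apart, and the labels do not say how the brain was dissected.

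Hox genes, which mark hindbrain and spinal cord and are silent in forebrain, gave 1 lower call, against 0.448% of all tested genes. All 10 list members had negative log2 fold changes. Hoxb3 (chromosome 11, 96323326 to 96347930) stood at 0.920, 1.16 and 1.05 CPM in J27a and at 3.42, 2.88 and 4.10 CPM in J27b, without overlap (-1.73, SE 0.26, edgeR adjusted p = 0.00617), and missed the threshold only without J27b replicate 3 (adjusted p = 0.0566). Of the 10, 8 reached an unadjusted p under 0.05, and 7 had libraries that did not overlap, against 5.87% and 9.16% of all genes in that direction. The median was -1.26. Hoxb4, at 0.318, 0.411 and 0.362 CPM in J27a and 1.46, 1.13 and 1.04 CPM in J27b, and Hoxd3, at 0.814, 0.823 and 0.402 CPM in J27a and 2.28, 1.69 and 1.83 CPM in J27b, came closest after it (edgeR adjusted p = 0.0641 and 0.0654). Summed over the 10 genes, the libraries held 9.83, 8.64 and 4.22 CPM in J27a and 23.2, 14.8 and 19.8 CPM in J27b.

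The list of 9 genes of monoamine and cholinergic neurons held 1 lower call, in a cholinergic gene, against 0.448% of all tested genes. Slc5a7, the high-affinity choline transporter, stood at 9.09, 11.4 and 10.9 CPM in J27a and at 17.7, 16.2 and 24.1 CPM in J27b (-0.88, SE 0.15, edgeR adjusted p = 0.0168). The groups did not overlap, yet the call was lost without J27a replicates 1 or 2 or J27b replicates 1 or 3 (adjusted p = 0.0529 to 0.0657). Slc18a3, the vesicular acetylcholine transporter, and Chat, which makes acetylcholine, had log2 fold changes of -0.85 and -0.43 (adjusted p = 0.172 and 0.262). The other 6 of the 9 genes on that list, which mark monoamine neurons, held 0 calls, and the list's median was -0.04. Of the 9, 4 had positive log2 fold changes, none of them a cholinergic gene named here. The list level overlapped between the groups, from -0.37 to 0.19 in J27a and from -0.25 to 0.62 in J27b. Ebf3, a transcription factor of developing neurons, was called as well, at 11.7, 9.05 and 9.37 CPM in J27a and 19.3, 15.4 and 15.5 CPM in J27b (-0.74, adjusted p = 0.0118), but not without J27a replicate 2 or J27b replicates 1 or 3 (adjusted p = 0.0537 to 0.1).

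**Figure D2:**
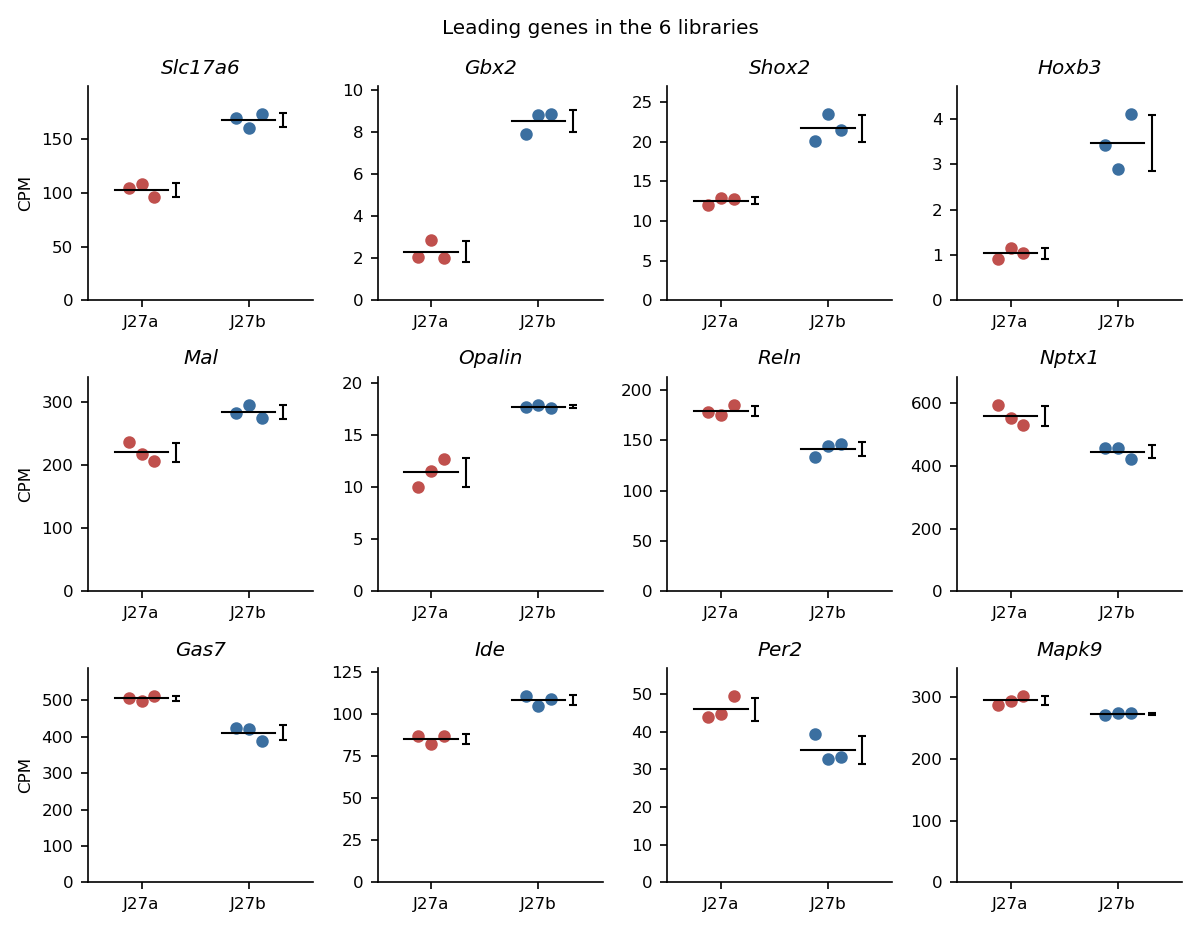
Each panel shows 1 gene, with CPM on the y axis from 0; points are the 3 J27a libraries (left, red) and the 3 J27b libraries (right, blue) in replicate order, the horizontal line is the group mean and the bar beside it is 1 SD. For Gbx2 the J27a libraries sit at 2.05, 2.88 and 2.01 CPM and the J27b libraries at 7.90, 8.78 and 8.84 CPM, whereas the J27a mean of Mapk9 is 108% of J27b.

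Of 10 genes of myelinating oligodendrocytes, 4 were called lower in J27a and 0 higher, against 0.448% and 0.376% of all genes. Mal (chromosome 2, 127633226 to 127656695), a proteolipid of compact myelin, stood at 236, 218 and 206 CPM in J27a and at 282, 295 and 274 CPM in J27b (-0.37, SE 0.05, edgeR adjusted p = 0.00493). Opalin (chromosome 19, 41061710 to 41077113), a transmembrane glycoprotein of oligodendrocytes, stood at 9.98, 11.6 and 12.7 CPM in J27a and at 17.7, 17.9 and 17.6 CPM in J27b (-0.63, SE 0.11, adjusted p = 0.0111). Mag, the myelin-associated glycoprotein, stood at 148, 172 and 139.9 CPM in J27a and at 199, 194 and 205 CPM in J27b (-0.38, adjusted p = 0.0179). In all 3 genes every J27a library lay below every J27b library.

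Cnp, a phosphodiesterase of the myelin sheath, was the fourth of them (-0.27, edgeR adjusted p = 0.022). Of the 10, 0 had a positive log2 fold change, 9 reached an unadjusted p under 0.05 and 9 did not overlap, against 5.87% and 9.16% of all genes in that direction; the median was -0.27. Mbp, myelin basic protein, stood at 3127, 2972 and 2461 CPM in J27a and at 3398, 3172 and 3202 CPM in J27b (-0.19, adjusted p = 0.437). Its groups did not overlap, but it did not pass the adjusted threshold. J27a replicate 3 had the lowest list level of the 6 libraries, and without it the list's median was -0.20 with 6 members called. Mal was called in 6 of 6 fits, Opalin in all but those without J27b replicates 1 or 3 (adjusted p = 0.0567 to 0.0747), Cnp in all but those without J27b replicates 1, 2 or 3 (adjusted p = 0.0873 to 0.145), and Mag in all but those without J27a replicate 1 or J27b replicates 1, 2 or 3 (adjusted p = 0.0564 to 0.104).

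Further lower calls included other genes of glia. Pllp, plasmolipin of the myelin membrane, stood at 48.5, 50.2 and 47.7 CPM in J27a and at 60.4, 64.02 and 61.2 CPM in J27b (-0.34, SE 0.06, edgeR adjusted p = 0.0111), and lost its call only without J27b replicate 3 (adjusted p = 0.0538). Tmem88b, a transmembrane protein, stood at 97.99, 98.6 and 93.7 CPM in J27a and at 129.7, 124 and 125 CPM in J27b (-0.38, SE 0.05, adjusted p = 0.00182), and was called in 6 of 6 fits. Il33, a nuclear cytokine that glial cells store, stood at 62.97, 75.2 and 76.3 CPM in J27a and at 101, 96.9 and 97.97 CPM in J27b (-0.47, adjusted p = 0.00576), a call lost without J27b replicate 1 (adjusted p = 0.0501). None of the 3 overlapped between the groups. Bcas1, of early myelinating cells (-0.47), Tspan2, a tetraspanin of oligodendrocytes (-0.26), Gpr37, a receptor of oligodendrocytes (-0.26), and Nfasc, the neurofascin of nodes and paranodes (-0.25), were called too (adjusted p = 0.0251, 0.0211, 0.0395 and 0.0372); these 4 were picked out after their values were seen. Calls were lost for Bcas1 without J27a replicate 1 or J27b replicates 1, 2 or 3 (adjusted p = 0.0575 to 0.116), for Tspan2 without J27a replicate 2 or J27b replicates 1, 2 or 3 (adjusted p = 0.0567 to 0.165), for Gpr37 without J27a replicate 1 or J27b replicates 1, 2 or 3 (adjusted p = 0.0752 to 0.22) and for Nfasc without J27a replicates 1 or 2 or J27b replicates 1, 2 or 3 (adjusted p = 0.0765 to 0.195).

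Precursor cells of the lineage gave 0 calls among 6 list members, against 0.824% of all tested genes. Olig1 and Olig2, transcription factors of the lineage, had log2 fold changes of -0.27 and -0.42 (edgeR adjusted p = 0.0988 and 0.28), and Sox10 of -0.31 (adjusted p = 0.157) with overlapping groups. Of the 6, 5 had negative log2 fold changes, and the median was -0.20. At an unadjusted p under 0.05, 3 were lower and 0 higher, against 5.87% and 6.34% of all genes. On the lower side 3 did not overlap, against 9.16% of all genes. The list level ran from -0.16 to -0.03 in J27a and from 0.07 to 0.16 in J27b, so 0 calls does not mean that these genes were level.

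Ependymal and choroid plexus genes, which line and fill the ventricles, gave 1 lower call each, among 6 and 8 genes. Over all tested genes, 0.448% were called lower. Foxj1, the master regulator of motile cilia, stood at 8.53, 8.97 and 9.45 CPM in J27a and at 12.4, 12.3 and 13.9 CPM in J27b (-0.52, SE 0.11, edgeR adjusted p = 0.0427). Kcne2, a potassium channel subunit of the choroid plexus, stood at 2.02, 1.76 and 2.77 CPM in J27a and at 6.12, 3.48 and 4.38 CPM in J27b (-1.10, SE 0.25, adjusted p = 0.0474). Neither overlapped, but Foxj1 lost its call without J27a replicates 1 or 2 or J27b replicates 1, 2 or 3 (adjusted p = 0.0873 to 0.198), and Kcne2 without J27a replicates 1 or 2 or J27b replicates 1 or 3 (adjusted p = 0.126 to 0.282). All 8 choroid plexus genes and all 6 ependymal genes had negative log2 fold changes, with medians of -0.85 and -0.34. Summed over the 8 choroid genes, the libraries held 420.4, 457 and 463 CPM in J27a and 1452, 465 and 691 CPM in J27b. The choroid list level was 1.05 in J27b replicate 1 and lay between -0.43 and 0.18 in the other 5 libraries; without that library the median was -0.35. Its part in the calls beyond these values was not tested.

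**Figure D3:**
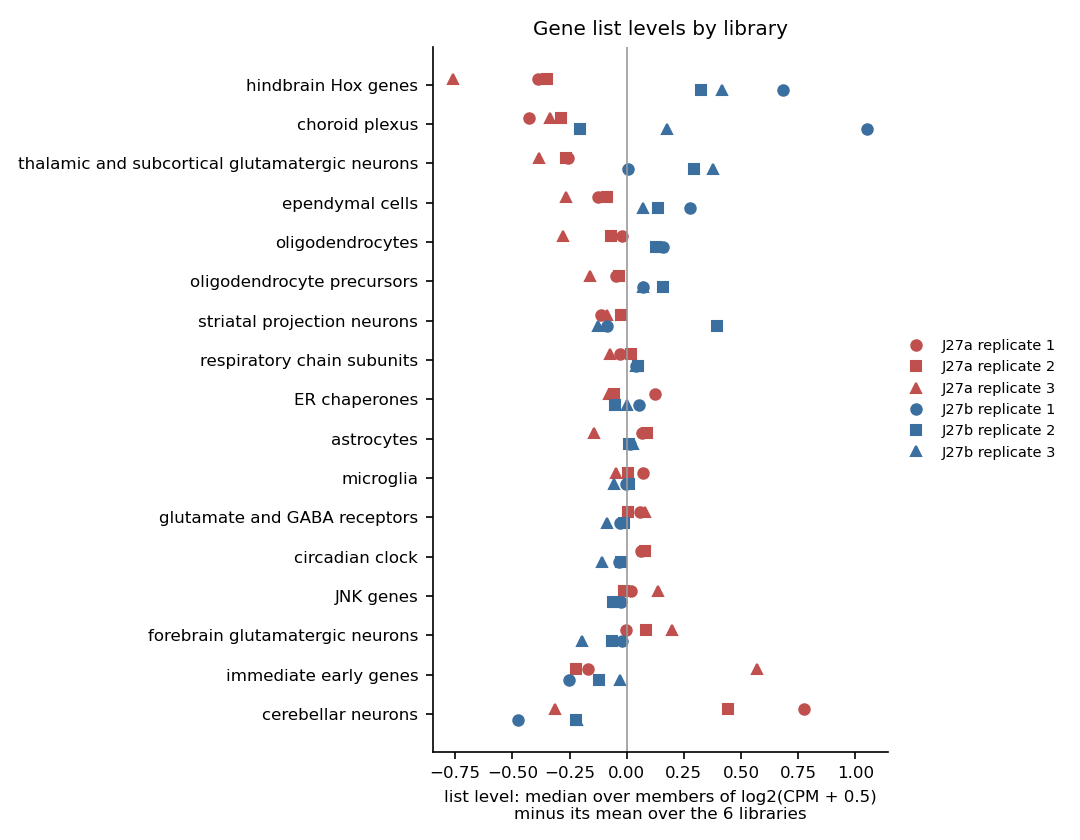
Rows are 17 gene lists and the x axis is the list level of a library, the median over the list's tested genes of log2(CPM + 0.5) minus its mean over the 6 libraries; red marks are J27a, blue marks J27b, and the shape gives the replicate. Hox, thalamic, oligodendrocyte, oligodendrocyte precursor, ependymal and circadian levels separate the groups. Choroid plexus, respiratory chain, receptor, forebrain and JNK levels separate them by narrower gaps. The cerebellar level is 0.78 and 0.44 in J27a replicates 1 and 2 and -0.31 in J27a replicate 3.

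Further genes lower in J27a belong to none of these lists. Ndn, the imprinted neuronal gene necdin, stood at 169, 194 and 171 CPM in J27a and at 218, 228 and 227 CPM in J27b (-0.33, SE 0.05, edgeR adjusted p = 0.00808), a call lost without J27b replicate 3 (adjusted p = 0.0567). Snrpn, another imprinted gene, whose transcript also carries the Snurf reading frame so that the split of reads between them is uncertain, stood at 5.38, 4.97 and 5.55 CPM in J27a and at 11.1, 9.51 and 7.92 CPM in J27b (-0.85, adjusted p = 0.0128), a call lost without J27a replicate 2 or J27b replicate 1 (adjusted p = 0.059 to 0.1). Gnas, which encodes the stimulatory G protein alpha subunit and is imprinted in some tissues, stood at 1417, 1426 and 1428 CPM in J27a and at 1606, 1588 and 1589.5 CPM in J27b (-0.16, adjusted p = 0.0474), and lost its call without J27a replicates 1 or 2 or J27b replicates 1, 2 or 3 (adjusted p = 0.0935 to 0.231); it was picked out after its values were seen. All 3 were without overlap. Meg3, an imprinted long RNA of neurons, lay the other way without passing the test, at 875, 868 and 932 CPM in J27a and 616, 723 and 793 CPM in J27b (0.33, adjusted p = 0.18).

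Amotl1, an angiomotin relative that binds Hippo-pathway proteins, stood at 77.3, 82.5 and 77.3 CPM in J27a and at 96.7, 112 and 109 CPM in J27b (-0.42, edgeR adjusted p = 0.00543), a call lost without J27b replicate 3 (adjusted p = 0.0527). Efhd1, a mitochondrial calcium-binding protein, stood at 32.1, 29.8 and 27.6 CPM in J27a and at 38.97, 41.96 and 41.1 CPM in J27b (-0.45, adjusted p = 0.00825), a call lost without J27b replicate 3 (adjusted p = 0.0566). Slc6a11, the GABA transporter GAT3 of astrocytes, stood at 337, 345 and 297 CPM in J27a and at 418, 402 and 441 CPM in J27b (-0.36, adjusted p = 0.00825), a call lost without J27b replicates 1 or 3 (adjusted p = 0.0567 to 0.0657). None of these overlapped, while the 8 genes of the astrocyte list had 0 calls and a median of 0.05.

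Adra2a, the alpha-2A adrenergic receptor, stood at 27.7, 29.99 and 26.4 CPM in J27a and at 35.0, 37.2 and 39.03 CPM in J27b (-0.40, edgeR adjusted p = 0.0167). Kcnh2, the ERG potassium channel, stood at 70.996, 66.6 and 62.5 CPM in J27a and at 88.02, 81.3 and 88.01 CPM in J27b (-0.36, adjusted p = 0.011). Ptpro, a receptor tyrosine phosphatase, had a log2 fold change of -0.45 and Slc4a2, an anion exchanger, of -0.40 (adjusted p = 0.0111 and 0.0228). Calls were lost for Adra2a without J27b replicates 1, 2 or 3 (adjusted p = 0.0584 to 0.116), for Kcnh2 without J27b replicates 1 or 3 (adjusted p = 0.0801 to 0.0847), for Ptpro without J27b replicates 1 or 3 (adjusted p = 0.0747 to 0.0859) and for Slc4a2 without J27a replicate 1 or J27b replicates 1 or 3 (adjusted p = 0.0685 to 0.144). Hist1h1c, a linker histone (-0.77), Fgfbp3, a carrier of fibroblast growth factors (-0.68), Synpo2, an actin-binding protein (-0.63), and Tmem98, a membrane protein of oligodendrocytes (-0.60), were among the 15 largest falls (adjusted p = 0.00825, 0.0213, 0.0467 and 0.0426). Calls were lost for Hist1h1c without J27b replicates 1 or 3 (adjusted p = 0.0515 to 0.0747), for Fgfbp3 without J27a replicate 2 or J27b replicates 2 or 3 (adjusted p = 0.0887 to 0.116), for Synpo2 without J27a replicates 1 or 3 or J27b replicates 1, 2 or 3 (adjusted p = 0.0729 to 0.156) and for Tmem98 without J27a replicate 2 or J27b replicates 1, 2 or 3 (adjusted p = 0.0873 to 0.246).

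On the higher side, the most stable of the genes described here differed by 0.30 to 0.40 on the log2 scale. Reln (chromosome 5, 21884454 to 22344702), the secreted glycoprotein reelin that guides neuronal positioning and acts at adult synapses, stood at 178, 175 and 185 CPM in J27a and at 134, 145 and 147 CPM in J27b (0.34, SE 0.05, edgeR adjusted p = 0.00543). Nptx1 (chromosome 11, 119538719 to 119547753), a neuronal pentraxin that gathers AMPA receptors, stood at 594, 550.5 and 529.9 CPM in J27a and at 457, 455 and 421 CPM in J27b (0.33, SE 0.05, adjusted p = 0.00576). In both genes, all J27a libraries lay above all J27b libraries.

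Gas7, a cytoskeletal adaptor of neurons, stood at 506, 497 and 512 CPM in J27a and at 424, 422 and 388 CPM in J27b (0.30, SE 0.04, edgeR adjusted p = 0.00576). Mtcl1 (chromosome 17, 66336982 to 66449750), a microtubule crosslinking protein of neurons, stood at 168, 151 and 145 CPM in J27a and at 110.1, 121 and 121 CPM in J27b (0.40, SE 0.06, adjusted p = 0.00617). Gas7, Mtcl1, Reln and Nptx1 were among the 5 higher genes called in 5 of 6 fits, and 0 higher genes were called in all 6. Reln and Mtcl1 missed the threshold without J27b replicate 1 (adjusted p = 0.0501 and 0.0584), and Gas7 and Nptx1 without J27b replicate 3 (0.0537 and 0.0537). Nptx1 and Mtcl1 fell from J27a replicate 1 to J27a replicate 3, the order of the cerebellar list level, while Reln and Gas7 did not. Their log2 fold changes were 0.36 (Nptx1) and 0.44 (Mtcl1) without J27a replicate 3, and 0.28 and 0.33 without J27a replicate 1. Any part of cerebellar content in Nptx1 and Mtcl1 was not tested.

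Further higher calls followed with fewer supporting fits. Adcy1, the calcium-stimulated adenylyl cyclase, stood at 1475, 1559 and 1462 CPM in J27a and at 1158, 1302 and 1141 CPM in J27b (0.32, edgeR adjusted p = 0.00825). Ryr2, a calcium release channel, stood at 257, 257 and 275 CPM in J27a and at 215, 221 and 222 CPM in J27b (0.26, adjusted p = 0.011). Bsn, the presynaptic scaffold bassoon, stood at 919.7, 904 and 982 CPM in J27a and at 767, 819.9 and 810.2 CPM in J27b (0.23, adjusted p = 0.0208). Calls were lost without J27b replicates 1 or 3 (adjusted p = 0.0567 to 0.0747) for Adcy1, J27b replicates 1 or 3 (adjusted p = 0.0601 to 0.0972) for Ryr2 and J27b replicates 1 or 3 (adjusted p = 0.0989 to 0.157) for Bsn.

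Mical2, an actin-oxidising enzyme (0.26), Camkk2, a kinase of calcium/calmodulin-dependent kinases (0.23), Syne1, a giant nuclear envelope protein (0.30), Pip5k1c, a phosphoinositide kinase of synapses (0.23), and Dio2, the deiodinase that activates thyroid hormone (0.33), were called at edgeR adjusted p-values of 0.00825, 0.0167, 0.0213, 0.0164 and 0.0142. Calls were lost without J27b replicates 1 or 3 (adjusted p = 0.0587 to 0.0713) for Mical2, J27a replicate 2 or J27b replicates 1 or 3 (adjusted p = 0.0502 to 0.122) for Camkk2, J27b replicates 1, 2 or 3 (adjusted p = 0.0751 to 0.122) for Syne1, J27a replicate 2 or J27b replicates 1 or 3 (adjusted p = 0.0687 to 0.107) for Pip5k1c and J27b replicates 1 or 3 (adjusted p = 0.0989 to 0.104) for Dio2. Dio2, which glial cells express, stood at 98.4, 88.2 and 98.2 CPM in J27a and at 73.5, 78.99 and 74.1 CPM in J27b, without overlap.

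Genes of lower level had larger log2 fold changes on the higher side. Ptpn22, a tyrosine phosphatase known from lymphocytes, stood at 7.11, 4.79 and 3.30 CPM in J27a and at 2.18, 2.22 and 1.87 CPM in J27b (1.28, SE 0.26, edgeR adjusted p = 0.0289). Ltbp2, a binding protein of the extracellular matrix, stood at 10.8, 8.53 and 6.39 CPM in J27a and at 3.38, 4.50 and 4.74 CPM in J27b (1.03, SE 0.19, adjusted p = 0.0213). Exph5, an effector of Rab27 in vesicle transport, stood at 85.3, 77.03 and 62.7 CPM in J27a and at 44.6, 48.4 and 49.1 CPM in J27b (0.67, SE 0.10, adjusted p = 0.0168). In all 3, J27a replicate 1 was highest and J27a replicate 3 came nearest to J27b, as in the cerebellar list level, which was 0.78, 0.44 and -0.31 in J27a and -0.48, -0.22 and -0.22 in J27b. The part of cerebellar content in these genes was not tested. Calls were lost without J27a replicates 1 or 2 or J27b replicates 1, 2 or 3 (adjusted p = 0.0885 to 0.167) for Ptpn22, J27a replicates 1 or 2 or J27b replicates 1, 2 or 3 (adjusted p = 0.0685 to 0.121) for Ltbp2 and J27a replicate 2 or J27b replicates 1, 2 or 3 (adjusted p = 0.0873 to 0.118) for Exph5.

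The remaining named genes of that side were Clk1, a kinase of splicing factors (0.41), Ftx, a noncoding RNA of the X inactivation centre (0.60), Tle2, a Groucho corepressor (0.50), Boc, a hedgehog coreceptor (0.41), Dpysl4, a collapsin response mediator (0.35), and Garnl3 (0.36), with edgeR adjusted p-values of 0.017, 0.0452, 0.0474, 0.0168, 0.0316 and 0.00825. Calls were lost without J27b replicates 2 or 3 (adjusted p = 0.0501 to 0.0566) for Garnl3, J27a replicate 2 or J27b replicates 1, 2 or 3 (adjusted p = 0.0687 to 0.1) for Clk1, J27a replicates 1 or 2 or J27b replicates 1, 2 or 3 (adjusted p = 0.0537 to 0.234) for Ftx, J27a replicates 1 or 2 or J27b replicates 1, 2 or 3 (adjusted p = 0.105 to 0.22) for Tle2, J27a replicate 1 or J27b replicates 1, 2 or 3 (adjusted p = 0.0567 to 0.114) for Boc and J27a replicates 1 or 2 or J27b replicates 1 or 3 (adjusted p = 0.101 to 0.182) for Dpysl4. G530011O06Rik, A230070E04Rik and C77080 completed the 15 largest rises, at 1.12, 0.77 and 0.36, and lost their calls without J27a replicates 1 or 2 or J27b replicates 1, 2 or 3 (adjusted p = 0.0758 to 0.197), J27a replicate 1 or J27b replicates 1 or 3 (adjusted p = 0.0562 to 0.1) and J27a replicates 1 or 2 or J27b replicates 1, 2 or 3 (adjusted p = 0.101 to 0.159).

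The circadian clock list held 3 of the higher calls, all in genes of its output or negative arm. Per2, a repressor of the clock, stood at 43.8, 44.6 and 49.5 CPM in J27a and at 39.3, 32.7 and 33.3 CPM in J27b (0.39, SE 0.08, edgeR adjusted p = 0.027). Per3, its relative, stood at 38.7, 45.1 and 42.7 CPM in J27a and at 33.1, 31.1 and 34.1 CPM in J27b (0.36, SE 0.07, adjusted p = 0.0228). Tef, a PAR-domain factor driven by the clock, stood at 396, 408 and 416 CPM in J27a and at 365, 354 and 342 CPM in J27b (0.20, SE 0.04, adjusted p = 0.0315). The groups did not overlap in any of the 3.

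Of the 14 clock genes tested, 3 were called higher and 0 lower, against 0.376% and 0.448% of all genes. On the higher side 7 reached an unadjusted p under 0.05 and on the lower side 0, against 6.34% and 5.87% of all genes, and the median was 0.11. Per1 had 92.6, 89.3 and 90.4 CPM in J27a and 78.4, 88.99 and 70.7 CPM in J27b (0.19, edgeR adjusted p = 0.267). The members of the positive arm were close to level, with Clock at 0.05 and Arntl, which encodes BMAL1, at 0.06, and so was Nr1d1, a repressor of Arntl, at 0.01. Dbp, like Tef a PAR-domain factor, was at 0.12 (adjusted p = 0.768) with overlapping groups. Calls were lost for Per2 without J27a replicate 2 or J27b replicates 2 or 3 (adjusted p = 0.0778 to 0.163), for Per3 without J27a replicate 2 or J27b replicates 1, 2 or 3 (adjusted p = 0.0847 to 0.111) and for Tef without J27a replicate 2 or J27b replicates 1, 2 or 3 (adjusted p = 0.0989 to 0.198). The labels give no hour of collection.

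Genes called higher had longer transcripts in the median than genes called lower. The longest annotated transcript had a median length of 5.83 kb in genes called higher and 3.72 kb in genes called lower, against 3.43 kb in all tested genes with a position in GENCODE M21. With the tested genes cut into 4 equal bins by that length, the median log2 fold change was -0.04, -0.01, 0.01 and 0.03 from the shortest to the longest bin, and 37.8, 46.3, 52.2 and 60.4% of the genes were positive. Calls on the higher side numbered 2, 4, 16 and 33 over these bins, and calls on the lower side 13, 18, 17 and 19. The level of long against short genes (median of the longest bin minus that of the shortest, log2 scale) was 0.03, 0.02 and 0.07 in J27a libraries and -0.02, -0.03 and -0.02 in J27b libraries, and ran from -0.05 to 0.17 in Wild type libraries, all centred on the 20 libraries.

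Malat1 and Rn45s, RNAs of nuclear and ribosomal origin, had higher means in J27a without passing the test. Neat1, another nuclear RNA, was level at 0.01 and ranged from -0.049 to 0.077 without single libraries. Malat1, a nuclear long RNA, stood at 3052, 1894 and 2306 CPM in J27a and at 1147, 1588 and 1635 CPM in J27b (0.73, edgeR adjusted p = 0.383). Rn45s, the ribosomal precursor, stood at 30134, 19961 and 25391 CPM in J27a and at 18041, 20323 and 17975 CPM in J27b (0.42, adjusted p = 0.455). Malat1 did not overlap and Rn45s did. With Rn45s left out of the table, 119 genes were called, all 119 among the 125. The part of transcript length and of these RNAs in the higher calls was not tested.

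Several lists of neuronal genes leaned to the higher side without a call. All 14 glutamate and GABA receptor genes had positive log2 fold changes, 5 of them at an unadjusted p under 0.05 (6.34% of all genes), with a median of 0.11. Gria4, an AMPA receptor subunit, stood at 204, 183 and 156 CPM in J27a and at 149, 151 and 154 CPM in J27b (0.26, edgeR adjusted p = 0.247), without overlap. Of 9 genes of forebrain glutamatergic neurons, 8 were positive, 5 at an unadjusted p under 0.05, with a median of 0.21. Slc17a7, the cortical transporter VGLUT1, stood at 956, 1037 and 1129 CPM in J27a and at 892, 919 and 940.4 CPM in J27b (0.18, adjusted p = 0.144), in the direction opposite to that of Slc17a6. Neurod2, a factor of cortical neurons, stood at 105, 89.0 and 85.9 CPM in J27a and at 76.8, 80.2 and 73.8 CPM in J27b (0.28, adjusted p = 0.0883). The groups did not overlap in either. Gria4 and Neurod2 fell from J27a replicate 1 to J27a replicate 3, the order of the cerebellar list level. Of the fits without a library, only that without J27a replicate 3 called them (edgeR adjusted p = 0.000129 and 0.00637). The part of cerebellar content in these 2 genes was not tested.

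Cerebellar genes split the J27a libraries. Pcp2, of Purkinje cells, stood at 56.5, 48.7 and 28.4 CPM in J27a and at 25.1, 30.3 and 29.8 CPM in J27b, and En2, a homeobox factor of the cerebellum, at 42.7, 32.9 and 18.3 CPM in J27a and 19.03, 16.5 and 20.5 CPM in J27b. J27a replicates 1 and 2 were high and J27a replicate 3 lay at the level of J27b. Summed over the 10 cerebellar genes, the libraries held 1899, 1504 and 915 CPM in J27a and 849, 1022 and 991 CPM in J27b. All 10 had positive log2 fold changes, with a median of 0.69, but 0 reached an unadjusted p under 0.05. Without J27a replicate 3 the median was 0.94 and 5 of the 10 were called.

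Immediate early genes, which neurons switch on with activity, were high in another library. Arc, a synaptic immediate early gene, stood at 64.7, 79.1 and 176 CPM in J27a and at 45.8, 64.6 and 78.1 CPM in J27b, highest in J27a replicate 3. The list's level was 0.57 in that library and lay between -0.25 and -0.03 in the other 5. The median of the 15 genes was 0.30 with 0 calls, and 0.06 without J27a replicate 3. Egr3, an activity-induced zinc finger factor, had 199, 158 and 213 CPM in J27a and 139, 151 and 138 CPM in J27b (0.42, edgeR adjusted p = 0.216).

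The JNK pathway lists around Mapk9 held 0 calls, against 0.824% of all tested genes, so this count says little about the pathway. Of the 13 kinases upstream of JNK, 2 reached an unadjusted p under 0.05 on the higher side and 0 on the lower side (median 0.03), and of the 8 scaffold genes 0 did so (median -0.01). Over all tested genes these shares were 6.34% on the higher and 5.87% on the lower side. Map2k4 and Map2k7, the kinases that phosphorylate JNK directly, were at -0.01 and -0.02 (edgeR adjusted p = 0.969 and 0.935). Map3k13, an upstream kinase of axonal stress, came closest, at 40.6, 35.2 and 37.3 CPM in J27a and 31.9, 33.2 and 29.2 CPM in J27b (0.26, adjusted p = 0.134), and its relative Map3k12 was at 0.11 (adjusted p = 0.355). Neither overlapped between the groups.

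The targets and brakes of the pathway on the lists also held 0 calls, against 0.824% of all tested genes. At an unadjusted p under 0.05, 6.34% of all tested genes were higher and 5.87% lower. Jun, the AP-1 subunit that gave the kinases their name, stood at 57.4, 55.5 and 49.3 CPM in J27a and at 60.3, 61.8 and 65.03 CPM in J27b (-0.21, edgeR adjusted p = 0.184), without overlap and without passing the test. Fosl2, another AP-1 subunit, was at 0.29 (adjusted p = 0.153). These were the only 2 of 10 AP-1 and ATF factors tested at an unadjusted p under 0.05, and the median was 0.08. Among 12 MAP kinase phosphatases (2 higher and 1 lower at an unadjusted p under 0.05, median 0.11), Dusp16, which acts on JNK, was at -0.23 and Dusp14 at 0.23 (adjusted p = 0.272 and 0.308). Among 10 ERK and p38 kinases (2 higher and 1 lower at that level, median 0.04), Mapk14, which encodes p38 alpha, stood at 90.2, 92.1 and 95.5 CPM in J27a and at 84.2, 82.998 and 83.8 CPM in J27b (0.15, adjusted p = 0.232). Of the 13 neuronal substrates of JNK, 0 were higher and 2 lower at that level (median -0.03), with Map1b, a microtubule protein, at -0.09 (adjusted p = 0.393) and Nefm, a neurofilament, at -0.28 (adjusted p = 0.216). The 13 genes of the BCL2 family and p53 had a median of 0.03, with 0 at that level in either direction.

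The other lists held no call apart from Ide among 15 insulin and IGF signalling genes (median 0.03), against 0.824% of all tested genes called. The 15 subunits of the respiratory chain all had negative log2 fold changes with a median of -0.06, 3 of them at an unadjusted p under 0.05, and the 9 heat shock genes were all negative with a median of -0.09. Of 18 cholesterol synthesis genes, 16 were negative (median -0.11); Hmgcs1, an early enzyme of the pathway, was at -0.15 (edgeR adjusted p = 0.207). The 10 striatal genes were all negative (median -0.14), with Drd1, the D1 dopamine receptor, at -0.29 (adjusted p = 0.232), but J27b replicate 2 carried this. The striatal list level was 0.39 in that library and lay between -0.13 and -0.02 in the other 5, and without it the median was 0.03. The remaining medians were 0.14 for 8 genes of GABAergic interneurons, -0.04 for 10 general neuronal genes, 0.03 for 7 hypothalamic neuropeptides, -0.34 for 5 olfactory bulb genes, 0.49 for 4 red blood cell genes, 0.04 for 10 microglial genes, -0.10 for 9 endothelial genes, -0.09 for 9 mural cell and fibroblast genes, -0.01 for 12 ER chaperones and 0.06 for 10 glucocorticoid response genes. Of these, the hypothalamic, microglial, chaperone and glucocorticoid medians changed sign when a single library was left out. The 10 general neuronal genes went both ways, with log2 fold changes from -0.35 to 0.19. Of them, 5 lower and 2 higher did not overlap between the groups, against 9.16% and 8.53% of all genes. Of the 125 called genes, 15 belonged to any of the lists for cell types, regions and pathways, 3 higher and 12 lower.

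By position, chromosome 19 held the highest share of called genes. Ide (chromosome 19, 37268743 to 37337852), which encodes the insulin-degrading enzyme, stood at 87.1, 81.9 and 86.8 CPM in J27a and at 111, 105 and 109 CPM in J27b, without overlap (-0.34, SE 0.05, edgeR adjusted p = 0.00617). It missed the threshold without J27b replicates 1 or 3 (adjusted p = 0.0537 to 0.0584). On chromosome 19, which holds it, 10 of 484 tested genes were called (2.07%; 3 higher and 7 lower), against 0.824% of all tested genes and at most 1.19% on any other chromosome. Among them were Fgfbp3 (chromosome 19, 36917550 to 36919615), Tcf7l2, Opalin, Il33 and Adra2a. Btaf1 (chromosome 19, 36926079 to 37012752), a regulator of the TATA-binding protein that lies between Fgfbp3 and Ide, stood at 55.7, 53.03 and 57.8 CPM in J27a and at 62.4, 64.6 and 61.7 CPM in J27b (-0.18, adjusted p = 0.191), without overlap. On chromosome 11, with Mapk9, 9 of 1199 tested genes were called (0.751%). Of the 20 tested genes nearest to Mapk9, 10 on each side, 0 were called, and 1 reached an unadjusted p under 0.05: Tgtp2, an interferon-induced GTPase with a near-identical neighbour, so that its counts are uncertain (-0.85, adjusted p = 0.309).

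Leaving out single libraries moved the number of calls more than the sizes. With 1 J27a library left out, the edgeR fits called 89 genes without replicate 1, 64 without replicate 2 and 369 without replicate 3. With 1 J27b library left out, they called 22 genes without replicate 1, 64 without replicate 2 and 13 without replicate 3. All 125 genes kept their sign in every one of the 6 fits. As the 125 were picked from these same libraries, this was largely set in advance. Of the 125, 6 were called in all 6 fits (0.0396% of the genes tested), 12 in 5, 16 in 4, 16 in 3, 38 in 2, 36 in 1 and 1 in none. The 6 were Slc17a6, Gbx2, Ntng1, Shox2, Tmem88b and Mal, all of them lower in J27a. Of the 50 genes with the smallest p in the 6-library fit, 31 to 38 were still among the 50 smallest when a library other than J27a replicate 3 was left out, and 16 without J27a replicate 3.

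**Figure D4:**
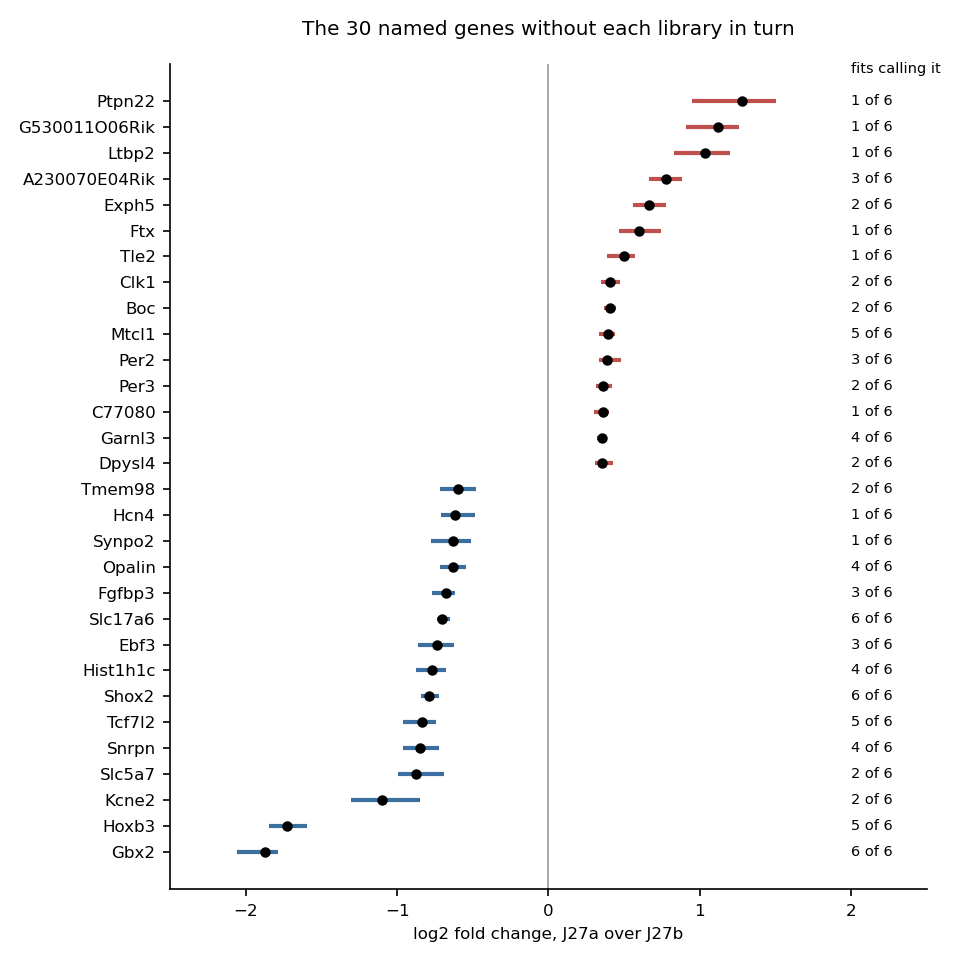
The 15 largest rises and 15 largest falls among called genes whose average log2 CPM is 1 or more and whose groups do not overlap; black points are log2 fold changes of J27a over J27b with 6 libraries, lines span the 6 fits without 1 library, and the numbers at the right count the fits that call the gene. No line crosses 0, which follows from picking genes whose groups do not overlap in these libraries. The counts run from 1 of 6 to 6 of 6.

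J27a replicate 3 stood out in this respect. Without it, 121 of the 125 genes were called again together with 248 others, and 246 of the 369 were higher in J27a. The smallest p-values among the others belonged to genes known from cerebellar neurons. Il16, a cytokine gene also used by cerebellar neurons, stood at 49.9, 41.7 and 26.5 CPM in J27a and at 21.1, 24.2 and 23.97 CPM in J27b, and Gng13, a G protein gamma subunit, at 28.7, 27.4 and 13.8 CPM in J27a and 14.6, 13.8 and 14.8 CPM in J27b. Slc1a6, the glutamate transporter of Purkinje cells, stood at 50.1, 48.9 and 26.9 CPM in J27a and at 29.8, 29.97 and 32.9 CPM in J27b. In all 3, J27a replicates 1 and 2 lay above every J27b library and J27a replicate 3 lay near or below the highest of them. These genes were picked out after their values were seen. Slc17a6 and the other 5 genes called in every fit had log2 fold changes of -0.74 to -0.65 (Slc17a6), -2.06 to -1.79 (Gbx2), -0.64 to -0.51 (Ntng1), -0.84 to -0.72 (Shox2), -0.40 to -0.36 (Tmem88b) and -0.42 to -0.32 (Mal) over the 6 fits.

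The other 14 libraries of the series give the spread in which these differences sit. Values here are CPM scaled over all 20 libraries. Slc17a6 ran from 96.6 to 109.5 CPM in J27a and 163 to 175 CPM in J27b, while the 3 Wild type libraries alone stood at 79.7, 126 and 225 CPM. The range of Wild type therefore covered both lines. Gbx2 ran from 2.03 to 2.91 CPM in J27a, within the range of the other 14 libraries, and from 8.004 to 8.94 CPM in J27b, above each of them; the highest of the 14 was at 7.43 CPM (J2 lf/lf), and Wild type stood at 3.02, 3.68 and 4.75 CPM. Reln ran from 177 to 187 CPM in J27a and 135 to 148 CPM in J27b, against 164 to 202 CPM in Wild type. Mal ran from 208 to 239 CPM in J27a and 277 to 298 CPM in J27b, against 246 to 329 CPM in Wild type.

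Over the 125 called genes, the difference between the J27a and J27b means was smaller than the range of the 3 Wild type libraries in 70 (56%), against 89.1% of all tested genes. The 125 were picked for differences large against the spread of the 6 libraries, so such contrasts with all genes follow in part from the picking. All 3 J27a libraries lay outside the range of the other 14 libraries in 6 called genes and all 3 J27b libraries in 7; over all tested genes these counts were 61 and 58. The J27a genes were Bsn, Gas7, Mical2, Vat1l, Klhl13 and Agtr2, and the J27b genes Gbx2, Ndn, Gnas, Tmem254a, Adamtsl1, Mtus2 and Diras2. The Hox list level, centred on all 20 libraries, ran from -0.58 to -0.17 in J27a and from 0.53 to 0.88 in J27b, against -0.89 to -0.24 in Wild type and -0.77 to 1.39 in J17a, so single libraries of other lines lay as high as those of J27b. The thalamic list level, centred in the same way, ran from -0.27 to -0.10 in J27a and from 0.14 to 0.48 in J27b. In Wild type it ran from -0.37 to 0.44, a range that covered J27a and reached into that of J27b.

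**Figure D5:**
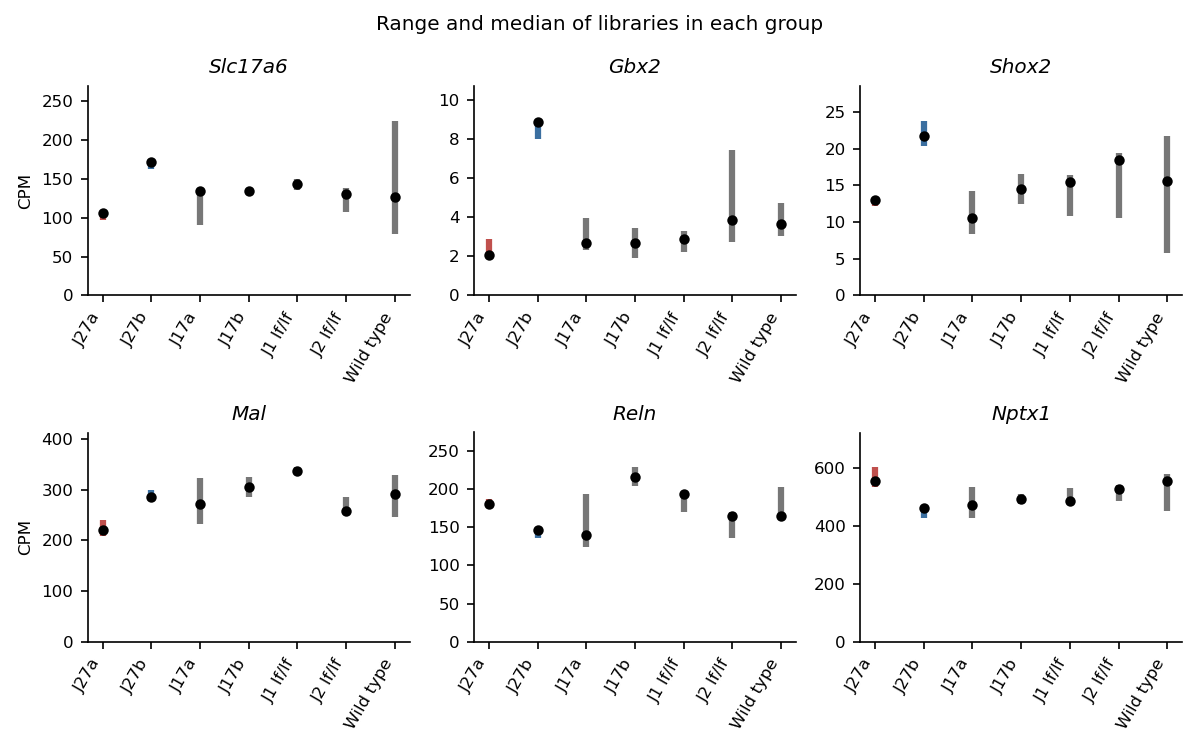
Lines span the lowest to the highest library of a group and points are medians, with CPM scaled over all 20 libraries on the y axis from 0; J27a is red, J27b blue and the other groups grey. J27b stands above all other groups for Gbx2, while for Slc17a6 the Wild type range, 79.7 to 225 CPM, covers both lines.

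J17a and J17b, the lines whose codes name the same 2 forms in JNK1, share no library with J27a and J27b. In the fit of all 20 libraries, 52 of the 125 genes (41.6%) had the same sign in J17a minus J17b as in J27a minus J27b, against 48.3% of all tested genes, and 3 of the 52 reached an unadjusted p under 0.05. Slc17a6 had a log2 fold change of -0.15 (SE 0.29) for J17a over J17b and Gbx2 of 0.16 (SE 0.35), with edgeR adjusted p-values of 0.975 and 0.977. Reln was at -0.50 (SE 0.14, adjusted p = 0.587), in the direction opposite to that of J27a over J27b. The difference of the 2 differences passed the test in 1 of 16063 genes, Ide, which was at -0.34 for J27a over J27b and at 0.58 (SE 0.11) for J17a over J17b (difference -0.92, edgeR adjusted p = 0.0267). Without any 1 of the 6 libraries of J27a and J27b, 0 genes passed it.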

How the data were processed

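Poly(A)-enriched brain libraries were sequenced as paired 150 bp reads, per the labels' protocols. The authors deposited estimated counts and TPM values per gene; RSEM, cutadapt and mm10 are named in the submitters' processing notes, without versions. Use of strand was not stated, so overlapping, antisense and near-identical genes are uncertain. Of the counts, 4.12% were not whole and were rounded. The 6 libraries were fitted in edgeR 4.0.16 (R 4.3.3) with TMM factors (0.989 to 1.01), filterByExpr and robust quasi-likelihood tests, two-sided, with Benjamini-Hochberg adjustment over 15169 genes; intervals are 95%. CPM values use these factors. No gene set was tested: lists are described by counts and medians. Named by rule were Mapk8, Mapk9 and Mapk10, the 15 largest called changes each way (average log2 CPM of 1 or more, groups apart), genes called in 3 or more of the 6 fits that leave out a library, up to 4 members of each list at an unadjusted p under 0.05, Mapk9's neighbours, and Ide, Btaf1, Rn45s, Gt(ROSA)26Sor (0.11, edgeR adjusted p = 0.814) and sex genes, of which 0 were called. Some genes that the rule names are not reported here. Other genes were picked after their values were seen, apart from list members given as context. The members, lists and rules were chosen with earlier results of these data known. Other settings were size factors from DESeq2 1.42.0 within edgeR, its Wald test, no filter, a fit over all 7 groups, a block for the replicate number, limma 3.58.1 on log2(TPM + 1) or log2(TPM + 0.1), Rn45s removed, and each library left out. The fits were tested on simulated data. Replicates differed by more than sampling noise, so each counted once. Positions and exon sequences are from GENCODE M21 on mm10.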

Additional observations from a re-analysis of the deposited data

Results flagged for a closer look

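Ide, the gene of the insulin-degrading enzyme, differed between the pairs of lines. In the edgeR fit of all 20 libraries, J27a minus J27b was -0.34 and J17a minus J17b was 0.58 on the log2 scale. The difference of the 2 was -0.92 (unadjusted p = 1.66e-06, adjusted p = 0.0267), the 1 gene called among 16063 (1077 at an unadjusted p under 0.05). In this fit Ide ran from 82.7 to 88.2 CPM in J27a and 106 to 112 CPM in J27b, and from 78.8 to 91.01 CPM in J17a and 51.9 to 61.9 CPM in J17b. All 3 libraries of J27a lay below all 3 of J27b, and all 3 of J17a above both of J17b. Without any 1 of the 6 libraries of J27a and J27b the count of genes called for this difference was 0.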

How the results depend on the processing

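Counts of calls depended on the test and the libraries, and sizes much less. Against 125 genes called (57 higher and 68 lower in J27a), the DESeq2 Wald test called 259 (133 and 126), edgeR without the filter 240 (112 and 128), the fit with all 7 groups 0 (0 and 0), and limma on log2(TPM + 1) and on log2(TPM + 0.1) 4 each (0 and 4). The 4 were Slc17a6, Gbx2, Shox2 and Abhd11os. With the replicate number as a block 82 were called (38 and 44), 69 of them shared; same-numbered libraries correlated at -0.04, 0.02 and -0.02 in their deviations, so the numbers were not taken as pairs. Without single libraries the calls ranged from 13 to 369, those higher from 5 to 246 and those lower from 8 to 123. The share called higher was 45.6%, and 66.7% without J27a replicate 3, 27.3% without J27b replicate 1 and 28.1% without J27b replicate 2. List medians moved without a library to -0.43 to 0.20 (monoamine and cholinergic), -1.67 to -1.05 (Hox), -1.12 to -0.35 (choroid plexus), -0.46 to -0.16 (ependymal), 0.014 to 0.043 (insulin and IGF) and 0.083 to 0.17 (circadian), and the Hox median was -0.80 with limma on log2(TPM + 1). Medians that changed sign without a library, beside the monoamine and cholinergic one, ranged from -0.28 to 0.034 (striatal), -0.24 to 0.21 (hypothalamic), -0.058 to 0.18 (glucocorticoid), -0.051 to 0.098 (astrocytes), -0.047 to 0.13 (AP-1 and ATF), -0.036 to 0.13 (phosphatases), -0.076 to 0.045 (ER chaperones), -0.029 to 0.0086 (scaffolds), -0.0033 to 0.05 (BCL2 family) and -0.015 to 0.054 (microglia). Genes called for the difference of the differences ranged from 0 to 0, against 1. Among named genes, direction turned for 2, neither of them called: Neat1 (0.01) ranged from -0.049 to 0.077 without single libraries and Eif2s3y (0.06) from -0.025 to 0.111. Slc17a6, Gbx2 and Shox2 were called in 7 of the 8 other settings; with all 7 groups their adjusted p-values were 0.804, 0.0656 and 0.855 in edgeR. The causes were not tested. At these depths low genes such as the Hox genes rest on few reads, and with 3 libraries a line only small spreads give calls.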
